A study of Mus musculus with 2 samples.

Results

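To describe the chromatin that lay farthest from annotated genes after BRD9 inhibition, differentially accessible regions (DARs) were selected that the authors' annotation placed in distal intergenic sequence and over 50 kb from the start site of transcription (TSS) of the nearest listed transcript. These far distal DARs numbered 751 of 5650 DARs, or 13.3%. Open chromatin had been mapped by ATAC-seq, in which the Tn5 transposase cuts and tags accessible DNA. The cells were bone marrow-derived monocytes (BMDMs) from C57BL/6 mice (C57BL/6J and 4 to 6 weeks old for cultures, per the methods), and both groups were cultured with the cytokines that turn them into osteoclasts, M-CSF at 50 ng/ml and RANKL at 100 ng/ml. The MR + vector group was given vehicle and the MR + iBRD9 group was given iBRD9, a selective inhibitor of BRD9, for 24 h, at a dose that the labels do not state. There was 1 library of 5000 cells for each group, so every difference is one between 2 libraries and has no replicate check. Gain DARs were more open with iBRD9 and loss DARs less open, with a log2 fold change of 0.5 or more in either direction. Both libraries had been reduced by the authors to equal read numbers, and the depth behind any single DAR is unknown because the tables hold no counts, signal or fold changes. The identity of the cells could not be checked by expression of markers in these tables.

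BRD9 is the bromodomain subunit that marks the non-canonical BAF complex, one of the remodelers that move nucleosomes and so expose or cover regulatory DNA. Regulatory elements far from any start site are typically enhancers, which act on genes over long stretches of DNA by looping, often past nearer genes. In monocytes and macrophages such elements are opened by PU.1 together with AP-1, C/EBP and RUNX factors. A nearest gene is therefore a label of position and not a target, and over such distances it is often a pseudogene or another non-coding gene.

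A set of 9 DARs is shown here, read 5′ to 3′ on the forward strand of GRCm39, the build of the authors' tables. The first is the DAR whose listed nearest gene was on a list of osteoclast genes. The next 4 come from 9 DARs whose nearest protein-coding gene was a monocyte or macrophage regulator. These 4 were chosen after their values were seen, and all held a motif match. Among those left out, gain DARs near Runx2 and Tlr4 held a PU.1 match and others held none. The last 4 shown were among the gain and loss DARs farthest from a listed TSS. Capitals mark every match to any of 10 motifs on either strand: AP-1 (TGANTCA), PU.1 (GAGGAA), RUNX (TGTGGT), C/EBP (TTGCNNAA), CTCF (AGNNGGCG), forkhead (TAAACA), ISRE (AAANNGAAA), the E-box (CACGTG), MITF (TCANGTGA) and NF-kB (GGNNTTTCC). A match is a stretch of letters and not a bound site.
Map3k7 (gain, chr4:31912403-31912577): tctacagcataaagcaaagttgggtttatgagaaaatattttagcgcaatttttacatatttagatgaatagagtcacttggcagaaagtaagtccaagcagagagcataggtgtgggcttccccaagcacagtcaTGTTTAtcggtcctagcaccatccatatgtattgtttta
Gm12519, 306637 bp from Klf4 (gain, chr4:55839165-55839359): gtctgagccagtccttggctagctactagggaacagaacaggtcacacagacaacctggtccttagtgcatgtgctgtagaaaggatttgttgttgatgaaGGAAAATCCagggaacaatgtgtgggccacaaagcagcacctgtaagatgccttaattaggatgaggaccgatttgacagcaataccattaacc
Gm49723, 205544 bp from Runx1 (loss, chr16:92828581-92828771): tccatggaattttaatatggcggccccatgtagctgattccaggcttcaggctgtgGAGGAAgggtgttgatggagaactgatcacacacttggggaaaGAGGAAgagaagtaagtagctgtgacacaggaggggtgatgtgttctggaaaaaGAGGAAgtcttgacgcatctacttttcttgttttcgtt
1810053B23Rik, 283479 bp from Runx1 (loss, chr16:92906516-92906705): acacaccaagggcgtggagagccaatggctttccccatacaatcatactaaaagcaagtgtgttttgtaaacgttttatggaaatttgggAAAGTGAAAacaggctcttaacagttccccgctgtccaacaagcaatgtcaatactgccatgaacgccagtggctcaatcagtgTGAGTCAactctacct
4930488N15Rik, 200953 bp from Maf (loss, chr8:116233353-116233580): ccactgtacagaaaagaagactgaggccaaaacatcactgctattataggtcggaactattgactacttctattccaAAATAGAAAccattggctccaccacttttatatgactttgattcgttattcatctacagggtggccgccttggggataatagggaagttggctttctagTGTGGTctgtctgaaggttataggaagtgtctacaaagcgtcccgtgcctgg
Gm42581 (gain, chr6:20366941-20367124): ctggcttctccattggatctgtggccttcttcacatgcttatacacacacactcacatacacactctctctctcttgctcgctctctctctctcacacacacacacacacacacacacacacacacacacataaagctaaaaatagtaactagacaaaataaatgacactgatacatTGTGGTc
Gm25264 (loss, chr2:47228925-47229074): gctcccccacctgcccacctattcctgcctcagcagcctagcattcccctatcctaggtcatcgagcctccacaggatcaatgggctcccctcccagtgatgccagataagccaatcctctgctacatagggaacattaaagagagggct
9330185C12Rik (loss, chr1:114382391-114382550): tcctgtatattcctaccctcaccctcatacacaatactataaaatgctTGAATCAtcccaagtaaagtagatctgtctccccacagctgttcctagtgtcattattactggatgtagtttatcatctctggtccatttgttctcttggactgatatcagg
Gm25485 (loss, chr4:50735393-50735588): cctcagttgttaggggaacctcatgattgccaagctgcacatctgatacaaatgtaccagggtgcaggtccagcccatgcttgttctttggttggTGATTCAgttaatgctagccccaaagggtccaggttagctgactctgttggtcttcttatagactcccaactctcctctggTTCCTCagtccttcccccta

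The gain DAR listed under Map3k7, the kinase TAK1 that relays RANK and Toll-like receptor signals, held 1 forkhead match at 38.3% GC. Near Runx1, a transcription factor of blood cell formation, 1 loss DAR held 3 PU.1 matches and the other held an AP-1 and an ISRE match. The farthest gain DAR, Gm42581, was 578889 bp from its listed TSS and contained a long run of the dinucleotide CA beside 1 RUNX match, and 61.5% of its 24-base words occurred only once in the genome. The farthest loss DAR, Gm25264, was 731830 bp from its listed TSS, had 56.0% GC and held none of the 10 motifs.

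Far distal DARs were split almost evenly between directions, with 395 gain DARs and 356 loss DARs. Over all DARs, 55.9% were gain DARs and 44.1% were loss DARs, and this background is the share against which the members are read. Gain DARs made up 52.6% of far distal DARs (95% Wilson interval 49.0% to 56.1%), a range that includes 55.9%. The share was 57.5% (54.6% to 60.4%) of 1076 intergenic DARs at 10 to 50 kb, 56.7% of 473 within 10 kb and 56.1% of 3350 DARs outside intergenic sequence. Set against the 1549 intergenic DARs within 50 kb, the far distal gain share differed by −4.67 points, with an interval of the difference from −9.00 to −0.337 points. The 55.9% of all DARs includes the far distal DARs themselves. Against the 4899 other DARs, of which 56.5% were gain, the difference was −3.86 points (−7.70 to −0.0515). These intervals cover counting error only, treat DARs as independent and are not tests of the treatment.

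By distance, the gain share was 51.1% of 421 DARs at 50 to 100 kb, 54.3% of 243 at 100 to 200 kb, 55.6% of 81 at 200 to 400 kb, and 3 of 6 beyond 400 kb. All 4 intervals overlapped, and no trend was tested. Just inside the limit of 50 kb were a gain DAR of an unnamed gene on chromosome 16 at 50001 bp, a gain DAR of Gm37349 at 50043 bp and a loss DAR of Gm11577 at 50072 bp upstream. Just outside it were a loss DAR of Derl1 at 49779 bp, a gain DAR of Gm8856 at 49622 bp upstream and a gain DAR of Zdhhc25 at 49610 bp.

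**Figure D1:**
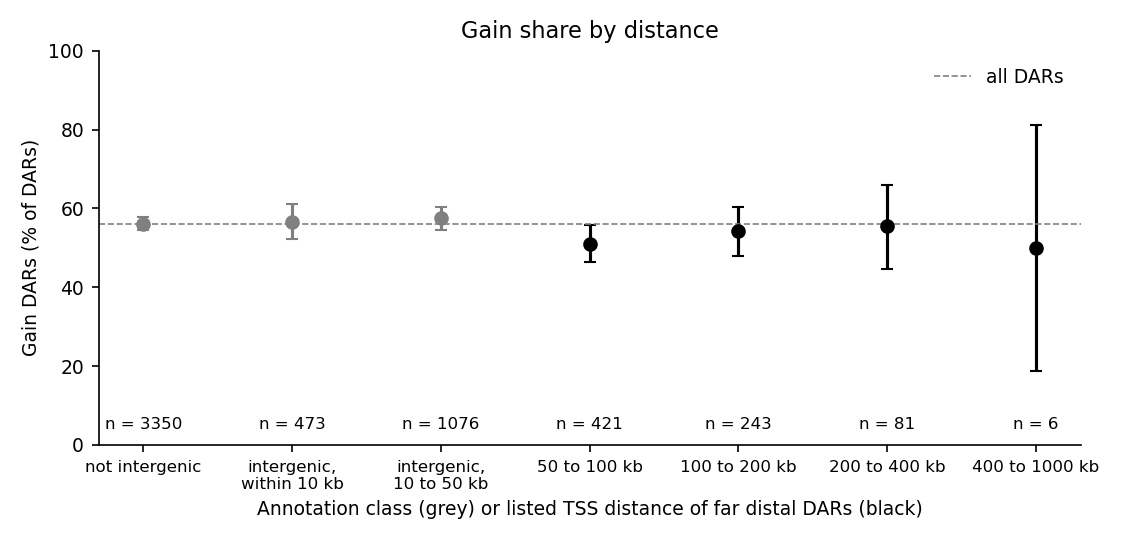
Share of gain DARs (y axis, %) in each annotation class (grey) and in each distance class of far distal DARs (black), with 95% Wilson intervals as bars and the share of all DARs as a dashed line. The point at 50 to 100 kb is the lowest of those with over 10 DARs, at 51.1%, and the 4 black intervals overlap.

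Gain and loss DARs lay at similar distances from their listed TSS. The median was 94611 bp for gain DARs, with an order-statistic 95% interval of 88228 to 101179 bp, and 90220 bp for loss DARs, with an interval of 83965 to 97487 bp. The quartiles were 66832 and 143696 bp for gain and 67086 and 134946 bp for loss. Neither direction favoured a side of the gene, since 191 gain DARs (48.4%) and 183 loss DARs (51.4%) were upstream of the listed TSS. Among the other far gain DARs were Gm35736 at 432662 bp, Gm37604 at 397861 bp and Gm21006 at 372232 bp upstream. After Gm25264, the farthest loss DARs were 9330185C12Rik at 490527 bp upstream, Gm25485 at 448647 bp, the microRNA gene Mir3964 at 397352 bp and Gm47020 at 379242 bp upstream.

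To learn what distances the same rule gives without any DAR, the autosomal sequence was read every 2 kb wherever it was outside genes and over 50 kb from any TSS, which left 189462 points. This used only the transcripts of GENCODE M39 numbered no higher than those the authors' table lists, which give back 619 of 751 listed distances (82.4%) within 1 bp. The median distance to the nearest such TSS was 96038 bp over the sequence and 92470 bp over the 750 autosomal far distal DARs. Points over 100 kb away made up 47.3% of the sequence, and the DARs over 100 kb away 43.9% (40.4% to 47.4%). Beyond 200 kb the shares were 13.2% of the sequence and 11.6% of the DARs (9.50% to 14.1%). Distances of far distal DARs to a TSS of these transcripts were thus close to those of the sequence that met the rule. The points were not restricted to accessible sequence, since peaks that were not DARs are not given. Comparisons with the points, here and below, therefore cannot separate DARs from other peaks.

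The label of distance depended strongly on the annotation. GENCODE M39 holds 481871 transcripts, of which only 28.8% carry numbers up to the highest that the authors' table lists below 1000000. Measured against every TSS in M39, 377 of 751 far distal DARs (50.2%, 46.6% to 53.8%) were still more than 50 kb away, 51.4% of gain DARs and 48.9% of loss DARs, and 4 loss DARs overlapped a TSS. Over the sequence points, 57.7% were more than 50 kb from every M39 TSS, above the interval of the autosomal DARs, 50.1% (46.6% to 53.7%). As many as 141 DARs (18.8%) were inside a gene of M39, 137 of them in a lncRNA gene, and for 119 of the 141 that gene had only the higher-numbered transcripts. The farthest loss DAR, Gm25264, was among these, at 18000 bp from the nearest M39 TSS. From any protein-coding TSS, in contrast, 748 of 751 DARs were over 50 kb away, at a median of 266009 bp (287305 bp for gain and 256840 bp for loss). Over the sequence points that median was 316714 bp, against 265480 bp for the 750 autosomal DARs. The order-statistic intervals of the DAR medians lay below 316714 bp, at 235174 to 308826 bp for gain and 230636 to 288007 bp for loss. Far distal DARs were thus nearer to protein-coding TSSs than the sequence that met the rule. Whether peaks that were not DARs lay as near could not be checked.

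**Figure D2:**
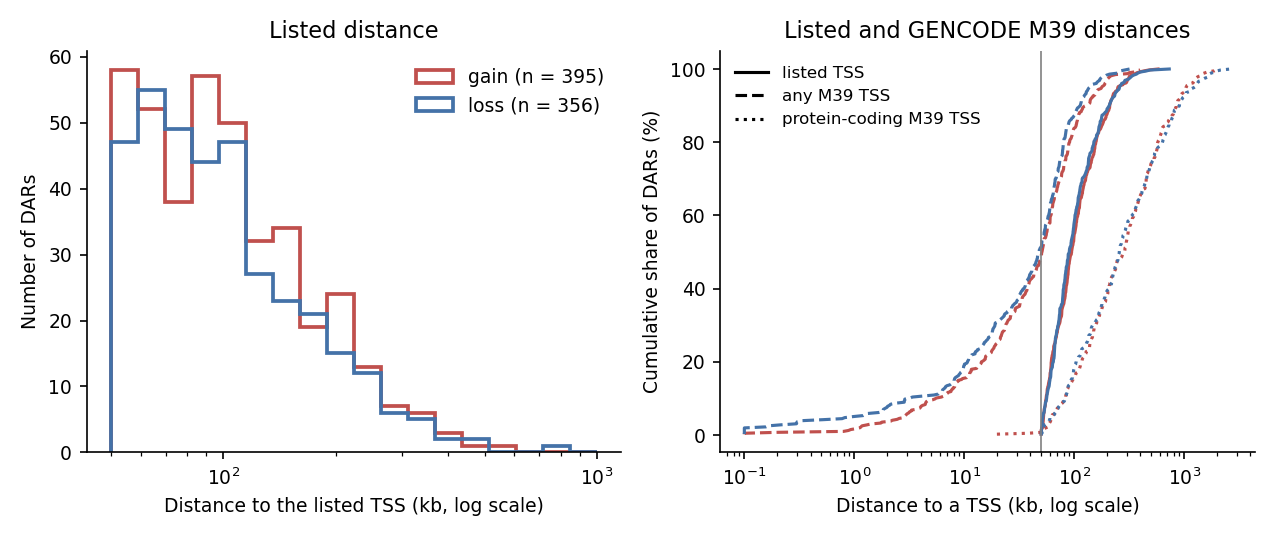
Left, number of gain (red) and loss (blue) far distal DARs by distance to the listed TSS in kb, on a log axis from 50 kb. Right, cumulative share (%) by distance to the listed TSS (solid), any M39 TSS (dashed) and a protein-coding M39 TSS (dotted), with distances under 0.1 kb drawn at 0.1 kb and a grey line at 50 kb. The red and blue curves of each kind run close together, while the dashed curves cross the grey line near the middle, with 50.2% of all far distal DARs to its right.

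Nearest genes of far distal DARs were mostly non-coding. A pseudogene was listed for 290 DARs (38.6%, 152 gain and 138 loss), a lncRNA or unconfirmed transcript for 209 (27.8%, 101 gain and 108 loss), a protein-coding gene for 129 (17.2%, 71 gain and 58 loss) and a small RNA gene for 106 (14.1%, 59 gain and 47 loss). Another 17 carried no symbol. A protein-coding gene was listed for 29.7% of intergenic DARs within 50 kb and for 48.8% of all DARs. Reading the sequence points in the same way gave a protein-coding gene for 16.3%, a pseudogene for 43.7%, a lncRNA for 27.7% and a small RNA gene for 12.3%. By the same transcripts, the 750 autosomal DARs had a protein-coding gene in 17.9% (15.3% to 20.8%) and a pseudogene in 38.8% (35.4% to 42.3%), and the second interval lies below the share of the sequence.

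The DARs were spread thinly over 659 different listed genes. Of these, 369 had a gain DAR, 335 a loss DAR and 45 both, while 578 genes had only 1 far distal DAR. Among 71 genes with a pair of DARs, 16 had both gain, 16 both loss and 39 one of each. The small nucleolar RNA gene Gm23674 on chromosome 18 was listed most often, for 3 gain DARs and 1 loss DAR. Gain DARs alone were listed for the pseudogenes Gm19102, Gm50188 and Gm5234 and for the small nucleolar RNA gene Gm25901, with 3 each. A mixture of 1 gain and 2 loss DARs was found for the pseudogenes Frg2f4 and Gm13254, the small nucleolar RNA gene Gm26396, the lncRNA gene D730003K21Rik and Rgs17, a regulator of G protein signalling and the only protein-coding gene of the 10 with 3 or more. The Rgs17 DARs were at 86554 and 168162 bp upstream (loss) and 201027 bp upstream (gain), so the direction changed along 1 stretch of about 115 kb.

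Genes of the osteoclast pathway were seldom listed, both here and over all DARs. A protein-coding gene was listed for 17.2% of far distal DARs and 48.8% of all DARs. The list shares below count every DAR and were not adjusted for this difference. Of 47 osteoclast genes, only Map3k7 was listed, for 1 gain DAR 51520 bp upstream of its TSS at chr4:31912403-31912577, or 0.133% of far distal DARs against 0.230% of all DARs. None of 50 monocyte and macrophage genes, 45 interferon genes or 31 genes of the BAF complex was listed, and a count of 0 of 751 allows a share of up to 0.399%. Over all DARs these lists had 0.212%, 0.0708% and 0.124%, so a count of 0 here is near the background. Of 102 developmental transcription factors, 4 were listed, for 0.533% of far distal DARs against 0.496% of all DARs. Irx1, an Iroquois homeobox factor, had a gain DAR at 83926 bp upstream. Loss DARs were listed for Atoh1, a factor of neuron formation, at 74025 bp, for Gata3, a T cell factor, at 101497 bp, and for Tcf7l2, an effector of Wnt signalling, at 98059 bp upstream. Of 123 genes of neuronal adhesion and synapses, 4 were listed for 2 gain and 3 loss DARs, or 0.666% of far distal DARs against 1.03% of all DARs. Gabra2, a GABA receptor subunit, had a loss DAR at 61127 bp and a gain DAR at 109169 bp, both upstream. Cdh7, a cadherin, had a gain DAR at 81013 bp, and Dscam, an adhesion molecule, and Epha7, an ephrin receptor, had loss DARs at 69417 and 88103 bp upstream.

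Read by the nearest protein-coding TSS in M39, far distal DARs had 530 different genes. A neuronal adhesion or synapse gene was nearest to 90 far distal DARs (12.0% of 750 autosomal DARs, 9.87% to 14.5%), 44 gain and 46 loss, while 15.3% of the sequence points had such a gene as their nearest. The share of DARs near these genes was thus below that of the sequence that met the rule, and peaks that were not DARs could not be compared. Epha7 and Pcdh17, a protocadherin, were each nearest to 6 DARs, 3 gain and 3 loss. Kcnd2, a potassium channel, was nearest to 4 DARs, all gain, at 363557 to 847742 bp. These were Gm42581 and the 3 gain DARs of Gm19102 given above. Lrrc4c, a synaptic adhesion protein, had 1 gain and 3 loss DARs. Developmental factors were nearest to 32 DARs, 14 gain and 18 loss (4.27%, 3.04% to 5.96%, against 3.26% of the sequence), among them 3 near Sox9, 3 near Irx1 and 2 loss DARs each near Gata3 and Atoh1.

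For the monocyte and macrophage list, the nearest protein-coding gene was a member for 9 DARs, 4 gain and 5 loss, or 1.20% (0.633% to 2.26%) against 1.04% of the sequence. Runx1 had loss DARs at 205544 and 283479 bp. Klf4, a factor of monocyte differentiation, had a gain DAR at 306637 bp and a loss DAR at 351475 bp. Loss DARs lay 200953 bp from Maf, a macrophage transcription factor, and 114352 bp from Kit, the receptor of stem cell factor. Gain DARs lay 246567 bp from Runx2, the bone-forming cell factor, 401056 bp from Tlr4, the receptor of lipopolysaccharide, and 1643492 bp from Zeb2, a zinc finger factor of myeloid cells. Among osteoclast genes, Map3k7 was nearest to a second gain DAR at 910264 bp (0.267% of DARs, 0.0732% to 0.967%, against 0.447% of the sequence). The interferon-induced gene Ifi44 was nearest to 1 gain DAR at 84406 bp (0.133%, 0.0235% to 0.751%, against 0.0406%). In the BAF complex, the subunit gene Arid1b was nearest to 1 gain and 2 loss DARs between 477130 and 636658 bp, and Bcl11a, a zinc finger protein found with BAF, to 1 gain DAR at 128159 bp. The BAF list came to 0.533% of DARs (0.208% to 1.36%) against 0.191% of the sequence, and 3 of its 4 DARs were those of Arid1b.

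Far distal DARs were found on all 19 autosomes. There were 750 on autosomes and 1 gain DAR on an unplaced sequence. Chromosome X held only 24 DARs of any class over 169 Mb, against 388 on chromosome 3 of 160 Mb. Its DARs carried region numbers from 12347 to 12503, against 12529 to 13876 on chromosome 3. None of the 24 was far distal, although 34.5 Mb of the sequence of chromosome X met the rule. A count of 0 there, read as under 3 counts, allows up to 0.0868 DARs per Mb, against 1.98 per Mb of such sequence over the autosomes. The low number on chromosome X was thus not particular to far distal DARs. Counts ran from 14 on chromosome 19 to 65 on chromosome 3. The number followed the length of sequence that met the rule (r = 0.879, rho = 0.870 over 19 autosomes) more closely than chromosome length (r = 0.683, rho = 0.654), given as a description since the chromosomes share both libraries. In all, 379 Mb met the rule, 15.8% of the autosomal sequence, and the 1.98 far distal DARs per Mb there compare with 2.41 other DARs per Mb of the other sequence.

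Chromosome 16 stood highest on either scale. It held 56 far distal DARs, 28 gain and 28 loss, which were 23.2% of its DARs and came to 0.571 per Mb of length and 2.97 per Mb of the sequence that met the rule (exact Poisson interval 2.25 to 3.86). The lowest density per Mb of such sequence was on chromosome 15, with 23 DARs and 1.21 per Mb (0.770 to 1.82). Per Mb of length, chromosome 13 was lowest, with 21 DARs and 0.174. The other autosomes had intervals that included 1.98. Because these are the extremes of 19 values, their intervals are a description only.

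The direction was mixed on every autosome. More gain than loss DARs were counted on 10 autosomes, more loss on 8, and chromosome 16 was even. The gain share ran from 35.7% on chromosome 9, with 10 gain and 18 loss DARs, to 67.5% on chromosome 5, with 27 gain and 13 loss. Chromosome 1 had 38 gain and 23 loss DARs. All 19 Wilson intervals included the share of 52.6%, so the 2 directions could not be told apart by chromosome at these counts. Gain and loss numbers rose together over the autosomes (r = 0.691, rho = 0.707, n = 19), again as a description.

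**Figure D3:**
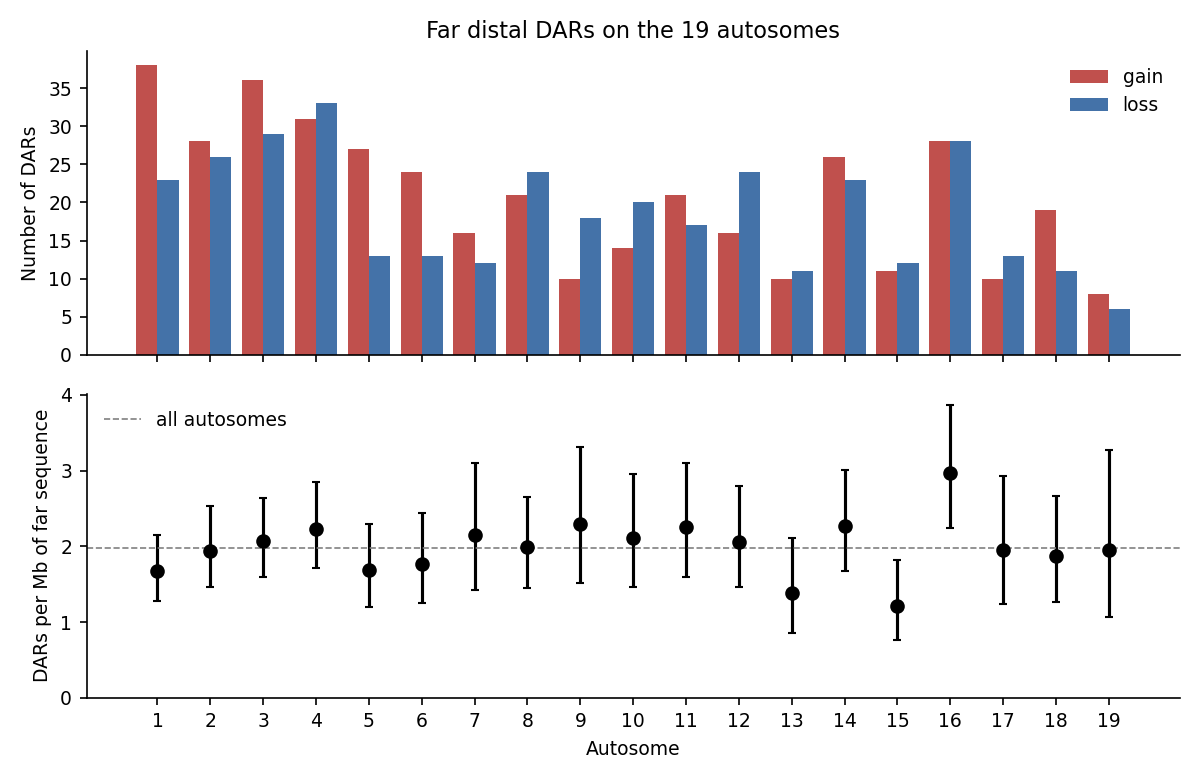
Top, number of gain (red) and loss (blue) far distal DARs on each of the 19 autosomes. Bottom, far distal DARs per Mb of sequence outside genes and over 50 kb from a TSS, with exact Poisson 95% intervals as bars and the mean of 1.98 as a dashed line. Chromosome 16 lies above the line at 2.97 and chromosome 15 below it at 1.21.

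The direction of neighbouring far distal DARs was mixed. The 91 neighbouring pairs within 100 kb had the same direction in 43 cases (47.3%, 37.3% to 57.4%). Within 20 kb it was 14 of 26 pairs (53.8%, 35.5% to 71.2%), and within 5 kb 4 of 7, all 4 of them gain. The closest pair, at Frg2f4 on chromosome 14, had a gain DAR of 195 bp and a loss DAR of 534 bp separated by 137 bp. Pairs of opposite direction were also 1013 bp apart at Vmn1r-ps2 and 1744 bp apart at Rpl19-ps10, a pseudogene 121639 bp from the gain DAR. Pairs of gain DARs were 918 bp apart at Gm49570, 1900 bp at Gm3749, 3371 bp at Gm19102 and 4572 bp at Gm23674.

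Each region carries a peak number, and numbers rose with position in 100% of steps within a chromosome. The highest number was 21333, and all DARs together came to 26.5% of it. How the authors numbered the regions, and which set of peaks the numbers count, is not stated. For far distal DARs, 43.8% of the adjacent numbers belonged to another DAR, against 33.5% for intergenic DARs within 50 kb, 28.2% for DARs outside intergenic sequence and 31.7% for all DARs. The regions behind the other numbers are not in these tables, and no test was made of these shares. Consecutive numbers joined 282 far distal DARs (37.5%) into runs of 2 to 5. A run of 5 on chromosome 18, over 1400 kb at Gm5824 and Gm5234, was all gain. So was a run of 4 over 484 kb at Gm42581 and Gm19102 on chromosome 6, the same 4 DARs that lay nearest to Kcnd2. Runs of 5 on chromosome 11 at Gm12003 and on chromosome 16 at Gm49638 mixed 3 gain with 2 loss and 2 gain with 3 loss, and the other 3 runs of 4 were mixed. Of 23 runs of 3, 1 was all gain and 5 were all loss, the latter at Gm47020, Gm9348, Gm50001, Gm12365 and Gm24957. Over the 161 pairs with consecutive numbers, 79 shared a direction (49.1%, 41.5% to 56.7%).

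**Figure D4:**
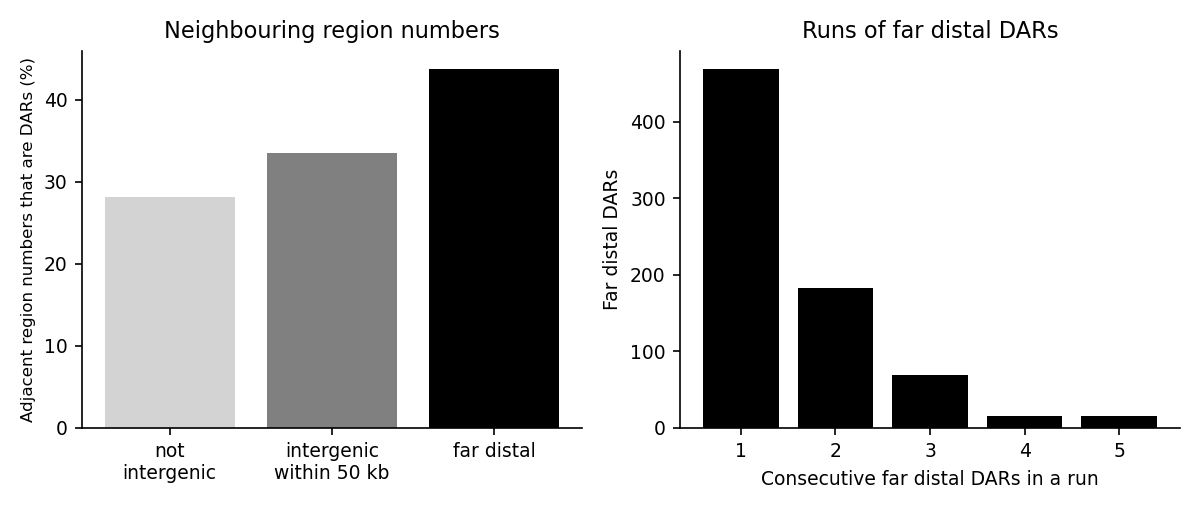
Left, share (%) of the adjacent region numbers that belong to a DAR, for DARs outside intergenic sequence, intergenic DARs within 50 kb and far distal DARs. Right, number of far distal DARs in runs of 1 to 5 consecutive region numbers. The far distal bar is the highest at 43.8%, and 469 far distal DARs stand alone.

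Far distal DARs were short. Their median width was 176 bp (176 bp for gain and 177 bp for loss), against 185 bp for intergenic DARs within 50 kb and 189 bp outside intergenic sequence. The smallest width in the tables, 150 bp, was that of 185 far distal DARs (24.6%, 21.7% to 27.8%), 100 gain and 85 loss, compared with 20.9% and 19.3% of the other classes. Widths of at least 300 bp were seen in 36 (4.79%), against 5.81% and 9.31%. The widest gain DAR was 799 bp and the widest loss DAR 534 bp.

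The sequence of far distal DARs was richer in G and C than its surroundings. Mean GC was 47.3% ± 5.53 (SD over 751 DARs), 47.5% for gain and 47.1% for loss, while sequence of equal length 1 kb to each side had 39.9% ± 7.33. DARs nearer to genes had more, 49.0% for intergenic DARs within 50 kb and 52.3% outside intergenic sequence. They too were above their flanks, which had 42.3% and 44.2%. CpG dinucleotides were scarce, at 0.699 per 100 bp against 1.03 and 2.70. The flanks of far distal DARs had 0.587 per 100 bp. Relative to the frequency of C and G, CpG came to 0.125 in the DARs and 0.147 in the flanks.

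Motif matches differed little between gain and loss DARs, and all 11 pairs of intervals overlapped. AP-1, the FOS and JUN dimer that RANKL induces, matched in 7.85% of gain and 8.71% of loss DARs. For PU.1, the lineage factor of macrophages and osteoclasts, it was 21.0% and 22.2%, and for RUNX 17.2% and 17.1%. Forkhead, the family that holds FOXP1, matched in 9.62% and 8.99%, and ISRE, the element of interferon response, in 5.32% and 7.02%. SOX (ACAAT), which is not marked in the sequences above because it is short and common, matched in 29.1% and 34.0%.

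Against their own flanks, far distal DARs had fewer matches to motifs rich in A and T, as did DARs of the other classes. Forkhead matched in 9.32% of DARs (7.44% to 11.6%) and 17.5% of flanks, ISRE in 6.13% and 12.6%, C/EBP in 6.52% and 9.67%, and SOX in 31.4% and 39.4%, and of these only the C/EBP intervals overlapped. PU.1 was in 21.6% of DARs (18.8% to 24.7%) and 17.3% of flanks (15.5% to 19.3%), RUNX in 17.2% and 13.7%, and AP-1 in 8.26% (6.49% to 10.4%) and 7.07%, with overlapping intervals for all 3. When 200 bp about the centre of each far distal DAR were searched instead, PU.1 (20.7% to 26.7%) and RUNX (15.6% to 21.2%) had intervals above those of their flanks. For RUNX the margin was narrow, since the flank interval ended at 15.5%. The flanks kept the width of their DAR, a mean of 195 bp, so the lengths searched were unequal. RUNX in the DARs at their own width was also above the flanks 5 kb away (10.4% to 13.7%). GC content moved with these differences, as given above, and its part in them was not tested. Set against other DARs, AP-1 was lower than the 11.4% of intergenic DARs within 50 kb, although its interval of 9.88% to 13.0% overlapped narrowly. With 200 bp searched, the AP-1 shares were 8.66% and 12.5%, and their intervals did not overlap. CTCF, the factor of loop anchors, matched in 1.86% of far distal DARs (1.11% to 3.10%), in 4.13% of intergenic DARs within 50 kb (3.25% to 5.24%) and in 11.6% of DARs outside intergenic sequence. The string searched for CTCF holds a CpG, and CpG rose in the same order, at 0.699, 1.03 and 2.70 per 100 bp. The part of CpG content in the CTCF shares was not tested. The other motifs were within 1 point of both classes or had overlapping intervals, except for SOX, which was higher than the 21.3% outside intergenic sequence. No match to any of the 11 motifs was found in 244 far distal DARs (32.5%), and 276 held matches to 1 motif only.

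**Figure D5:**
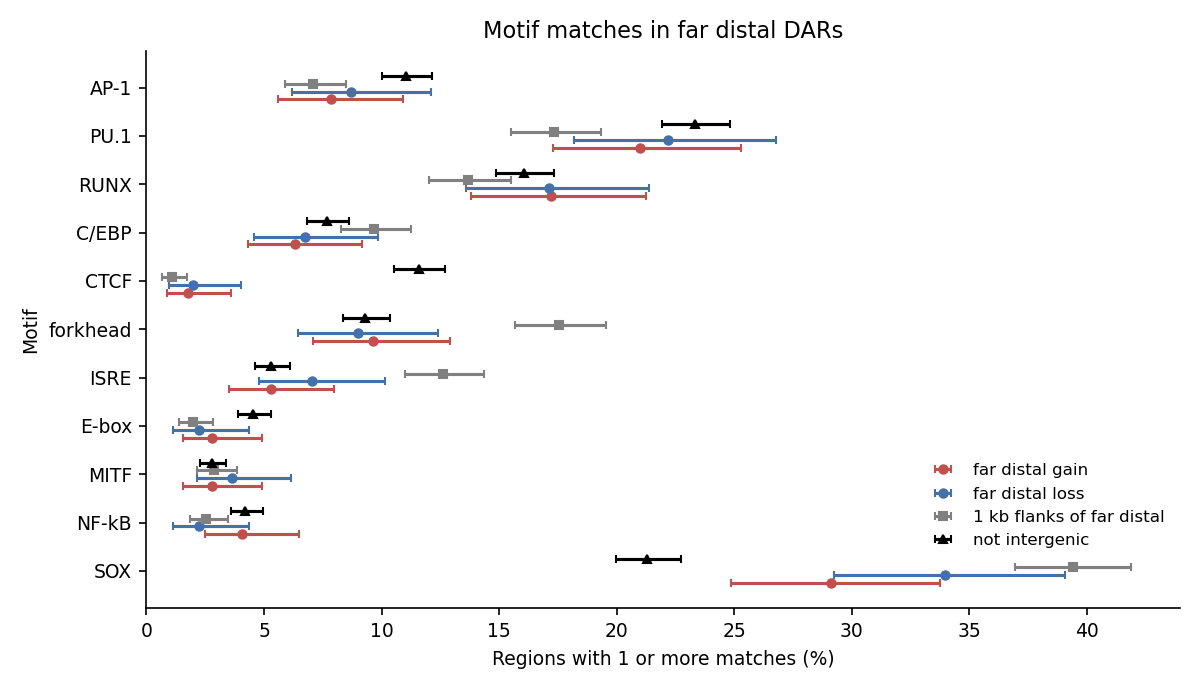
Share (%) of regions with at least 1 match to each of 11 motifs, for far distal gain DARs (red), far distal loss DARs (blue), 1 kb flanks of both (grey squares) and DARs outside intergenic sequence (black triangles), with 95% Wilson intervals. Red and blue intervals overlap for every motif, while forkhead and ISRE are higher in the flanks, at 17.5% and 12.6%.

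Gain and loss far distal DARs differed in how much of their sequence is repeated in the genome, a property examined after other values were seen. Every 24-base word of the DAR occurred only once in the genome for 160 of 395 gain DARs (40.5%, 35.8% to 45.4%) and 178 of 356 loss DARs (50.0%, 44.8% to 55.2%). The difference was −9.49 points for gain minus loss, with an interval from −16.5 to −2.37 points. Among the other 4899 DARs, it was 64.6% of gain and 66.5% of loss DARs, a difference of −1.84 points (−4.51 to 0.851). Only words found once made up 45.0% of far distal DARs, 52.1% of intergenic DARs within 50 kb, 71.6% outside intergenic sequence and 51.6% of far distal flanks. The mean share of words found once was 86.0%, 87.7%, 94.8% and 83.2% in the same order. Regions with under 50% of words found once made up 8.52%, 8.39%, 2.60% and 14.5%. Far distal DARs thus differed little from intergenic DARs within 50 kb on the last 2 measures. At least 50% of the words were found 100 times or more in 7 far distal DARs, 6 gain and 1 loss, or 0.932%, compared with 6.27% of the flanks. Reads are harder to place in repeats, and the part of read placement in this difference was not tested. No pair of far distal DARs shared more than 18 words. The words had to match exactly, so copies that differ at scattered bases could not be seen this way.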

How the data were processed

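ATAC-seq was done on 2 libraries of BMDMs, 1 for MR + vector and 1 for MR + iBRD9. According to the submitters' processing notes and the methods, the authors trimmed reads with cutadapt 1.9.1, aligned them to GRCm39 with Bowtie2 2.2.6, removed duplicates with Picard 1.126, sampled both libraries to a common depth, called peaks with MACS3 on read pairs and merged them. No shift to the Tn5 cut site is stated. The deposited tables of gain, loss and all DARs give positions, widths and distances in bp, with no other measured unit, and the version of the gene annotation is not given in the sources used here. Chromosomes 20 and 21 of the tables were read as X and Y.

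Here, DARs were counted with Python 3.11.15, pandas 2.3.3, numpy 2.4.6, scipy 1.17.1 and pysam 0.24.0. Distances were measured again in GENCODE M39, and sequence was read from GRCm39. Shares carry 95% Wilson intervals, the difference of shares a Newcombe interval and densities above 0 an exact Poisson interval. Words of 24 bases were counted over the genome on both strands with numba 0.67.0. With 1 library per group no test was made. Motif search, distances and intervals were tested on simulated data. The 6 gene lists (398 genes) and the members were chosen with earlier results of these data known. Named genes were those listed for 3 or more DARs, list members, the 5 farthest of each direction, 3 on each side of the limit and pairs within 5 kb. A region that this rule names is not reported here. Genes by nearest protein-coding TSS, the sequence points, the region numbers and the 24-base words were added after values were seen. Alternatives changed the distance limit, annotation, width, merging, window, flanks and chromosomes.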

Additional observations from a re-analysis of the deposited data

How the results depend on the processing

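No paired analysis was possible because each group had 1 library, and leaving out a library was not possible for the same reason. A stricter fold change could not be tried, since the tables hold none. Of 49 alternative values for 19 results, 37 stayed within the interval of the reported value or, for counts and ratios, within 1.5 times of it. The number of DARs fell from 751 to 330 at a limit of 100 kb and to 87 at 200 kb, with gain shares of 54.5% and 55.2%. Taking every DAR over 50 kb from any gene body in M39 gave 303 DARs with a gain share of 56.4% (50.8% to 61.9%), above the interval of the reported 52.6% and close to the 55.9% of all DARs. This alternative changed the annotation, the use of gene bodies and the intergenic class together. The same DARs kept only where over 50 kb from any M39 TSS numbered 377, with 53.8% gain. Taking every DAR over 50 kb from a protein-coding gene body gave 1707 DARs. The median distance was 287305 bp for gain and 256840 bp for loss to a protein-coding TSS, and 50978 and 47985 bp to any M39 TSS. AP-1 and RUNX matches in flanks 5 kb away were 5.56% and 11.9%. The highest density over the lowest was 3.29 as reported and between 2.45 and 3.55 otherwise, with chromosome 16 highest each time. Wilson, Poisson and Newcombe intervals cover counting error only, and depth per DAR is unknown.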

Other observations

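Near the ends of the assembly, 6 far distal DARs began within 200 kb of the first sequenced base of an autosome, where the assembly starts after the unsequenced centromeric end. They lay on 4 autosomes and 5 of the 6 were gain DARs. At Gm3749 on chromosome 16, gain DARs began 62 and 2308 bp from the first base and had 59.4% and 70.7% of 24-base words found once. At Vmn1r-ps2 on chromosome 4, a loss DAR began 694 bp and a gain DAR 1857 bp from it, with 77.2% and 77.7%. The others were gain DARs listed under 4933401J01Rik on chromosome 1, 2485 bp from the first base and with 100% of words found once, and under Gm37338 on chromosome 3, 122091 bp from it with 69.1%. The first 200 kb of all autosomes held 12 DARs of other classes, 6 gain and 6 loss. This set was chosen after its values were seen.

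The dinucleotide runs visible in the farthest gain DAR were uncommon. A run of at least 24 bp of 1 repeated dinucleotide was found in 8 of 751 far distal DARs (1.07%, 0.541% to 2.09%), 6 gain and 2 loss, and in 2.73% of their flanks (2.02% to 3.69%). It was found in 1.10% of intergenic DARs within 50 kb and 0.896% of DARs outside intergenic sequence. Without these 8, gain DARs made up 52.4% of the far distal DARs.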
